A study of Mus musculus with 36 samples.

Results

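Cxcl9, Cxcl10 and Cxcl11 encode the chemokines that bind the receptor CXCR3, and their transcripts were followed through 36 RNA-seq libraries of mouse bone marrow-derived macrophages (BMDMs). The genes were found by symbol from the Ensembl identifiers of the files, 3 of 52636 genes, and all 3 were among the 13748 genes that passed the filter on low counts, with at least 62 reads for each in every library. The BMDMs came from N4bp1 knockout (KO) and wild-type (WT) mice and were grown from bone marrow in M-CSF. Every group received R837 (imiquimod, an agonist of Toll-like receptor 7, TLR7), and each of the 12 groups, 6 conditions in each of 2 genotypes, held 3 libraries. The KO groups were R837 for 3 h, R837 for 3 h and then the transcription inhibitor actinomycin D (ActD) during 0.5, 1, 2 or 4 h, and R837 for 7 h. The WT groups received the same treatments. The labels' protocol names C57BL/6N mice and takes the macrophages of 3 individual mice as biological replicates; the strain of the KO mice, the deleted part of N4bp1, and the age and sex of the animals are not given in the sources used here. Whether R837 remained present during ActD is not stated, and no group without R837 was analysed here.

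CXCR3 is carried mainly by activated T cells and natural killer cells, and its ligands draw those cells into inflamed tissue. Macrophages make the ligands when interferons act on them, in part through interferon regulatory factors, and Cxcl10 is also a target of NF-kB after Toll-like receptor signals. Cxcl9 depends on interferon gamma more than Cxcl10 does. N4BP1 is a protein with a ribonuclease domain that restrains NF-kB-driven cytokine production in macrophages.

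The 3 genes lie in a row on the minus strand of chromosome 5 (GRCm38), within 44.1 kb. Cxcl9 (ENSMUSG00000029417) spans chr5:92321347-92328079, Cxcl10 (ENSMUSG00000034855) spans chr5:92346638-92348889 and Cxcl11 (ENSMUSG00000060183) spans chr5:92359544-92365485. Cxcl11 is annotated as a polymorphic pseudogene: C57BL/6 mice are known to carry a frameshift in it, so that its transcript is made but the chemokine is not. Art3, an ADP-ribosyltransferase gene on the plus strand (chr5:92331827-92414628), spans Cxcl10 and Cxcl11. Gm2673, a processed pseudogene on the plus strand (chr5:92363904-92365511), overlaps the start of Cxcl11. How reads over such overlaps were assigned is not given in the sources used here. Art3 itself was counted with 0 to 6 reads per library and Gm2673 with 0 or 1. What these overlaps cost the counts of Cxcl10 and Cxcl11, if anything, was not tested.

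The promoters of Cxcl10 and Cxcl9 are shown because both genes lie in the same cluster and their transcripts moved apart over time. The sequences are from RefSeq (GRCm38.p6), cover 250 bases before and 50 bases after the start of the gene, and were given for 2 of the 3 genes. Capitals mark matches to 4 motifs searched on both strands.
Cxcl10, minus strand, chr5:92348840-92349139: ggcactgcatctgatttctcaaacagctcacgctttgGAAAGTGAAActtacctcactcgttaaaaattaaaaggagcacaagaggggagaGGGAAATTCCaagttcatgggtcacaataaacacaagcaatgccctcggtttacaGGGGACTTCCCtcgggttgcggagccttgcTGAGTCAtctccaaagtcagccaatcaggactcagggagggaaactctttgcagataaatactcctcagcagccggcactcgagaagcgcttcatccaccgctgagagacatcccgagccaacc
Cxcl9, minus strand, chr5:92328030-92328329: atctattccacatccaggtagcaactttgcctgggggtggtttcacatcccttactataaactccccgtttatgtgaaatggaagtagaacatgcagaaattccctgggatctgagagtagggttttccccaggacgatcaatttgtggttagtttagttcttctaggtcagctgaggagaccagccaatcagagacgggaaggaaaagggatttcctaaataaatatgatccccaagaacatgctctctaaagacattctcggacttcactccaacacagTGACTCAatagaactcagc
The Cxcl10 window held an interferon-stimulated response element (ISRE, searched as GAAA, any 2 bases and GAAA) at bases 38 to 47, NF-kB consensus matches at bases 92 to 101 and, overlapping each other, at bases 147 to 156 and 148 to 157, and an AP-1 match (TGANTCA) at bases 177 to 183. The Cxcl9 window held only an AP-1 match, at bases 282 to 288, and neither window held the gamma-activated site searched as TTCNNNGAA. Of 32851 mouse promoter windows of the same length, 3.44% held the ISRE, 8.46% the NF-kB consensus, 7.81% the AP-1 motif and 8.3% the gamma-activated site. A match describes these letters and is not a binding site.

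The libraries held 20271550 to 46107214 reads on genes. Values are CPM (read counts scaled to the library total) after TMM normalization, and tests are edgeR quasi-likelihood F tests on the counts, with Benjamini-Hochberg adjusted p below 0.05 as the threshold. The replicates farthest apart were WT replicates 1 and 3 after 0.5 h of ActD (chi-square per degree of freedom of 45.6 over genes, against 2.23 to 28.7 for the other pairs). N4bp1, the targeted gene, averaged 84.09 CPM in KO and 133.5 CPM in WT at 3 h (log2 difference -0.67 ± 0.08, SE; edgeR adjusted p = 1.08e-08), reduced and not absent, whereas after 4 h of ActD it averaged 87.74 CPM in KO and 57.63 CPM in WT. All 10 macrophage markers were detected in every group, at a summed 22000 to 54310 CPM. The summed markers of other cell types were lower than those of macrophages in these groups and in part differed between genotypes. At 3 h the 7 fibroblast markers summed to 32.18 to 34.29 CPM in KO and 15.63 to 18.92 CPM in WT, and the 7 B and plasma cell markers to 104.3 to 109.9 CPM in KO and 56.26 to 61.08 CPM in WT. The 9 T and NK cell markers summed to 23.13 to 25.3 CPM in KO and 11.58 to 14.02 CPM in WT, nearly all of it Cd4 and Cd8a, while Cd3e did not exceed 0.125 CPM in any library. The 9 dendritic cell markers summed to 49.92 to 52.14 CPM in KO and 38.99 to 44.56 CPM in WT at 3 h. Single dendritic cell markers did not move together. Of the 7 tested at 3 h, 2 passed as higher in KO and 3 as lower (median log2 -0.44). The shares over all genes were 15.2% higher and 12.6% lower. Itgax and Ccr7 reached 34.99 and 33.12 CPM, against at most 5.386 CPM for Siglech, the next of that list. The 10 neutrophil markers summed to 644.9 to 754 CPM in KO and 636.9 to 737.4 CPM in WT at 3 h, which overlapped. The part of these markers in the results was not tested. In bulk RNA, fewer cells making a transcript and less transcript per cell cannot be told apart.

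Per kilobase, Cxcl10 was by far the most abundant of the 3 transcripts in every group. At 3 h of R837 it stood at 985.9 ± 22.4 CPM per kb in KO and 1513 ± 42.3 CPM per kb in WT (SD, n = 3 each). Cxcl9 stood at 4.59 ± 0.57 CPM per kb in KO and 3.83 ± 0.83 CPM per kb in WT, and Cxcl11 at 4.83 ± 0.72 CPM per kb in KO and 5.52 ± 0.59 CPM per kb in WT. By 7 h of R837 the order below Cxcl10 had opened out. Cxcl10 then stood at 149.5 ± 7.08 CPM per kb in KO and 104.5 ± 1.87 CPM per kb in WT, Cxcl9 at 16.61 ± 0.81 CPM per kb in KO and 11.33 ± 0.45 CPM per kb in WT, and Cxcl11 at 0.756 ± 0.054 CPM per kb in KO and 0.603 ± 0.113 CPM per kb in WT. The width used for Cxcl11, 3794 bases, joins all its annotated exons; with the protein-coding transcript of 1581 bases, a choice made after seeing the data, its 3 h level was 11.58 CPM per kb in KO and 13.25 CPM per kb in WT, above Cxcl9.

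**Figure D1:**
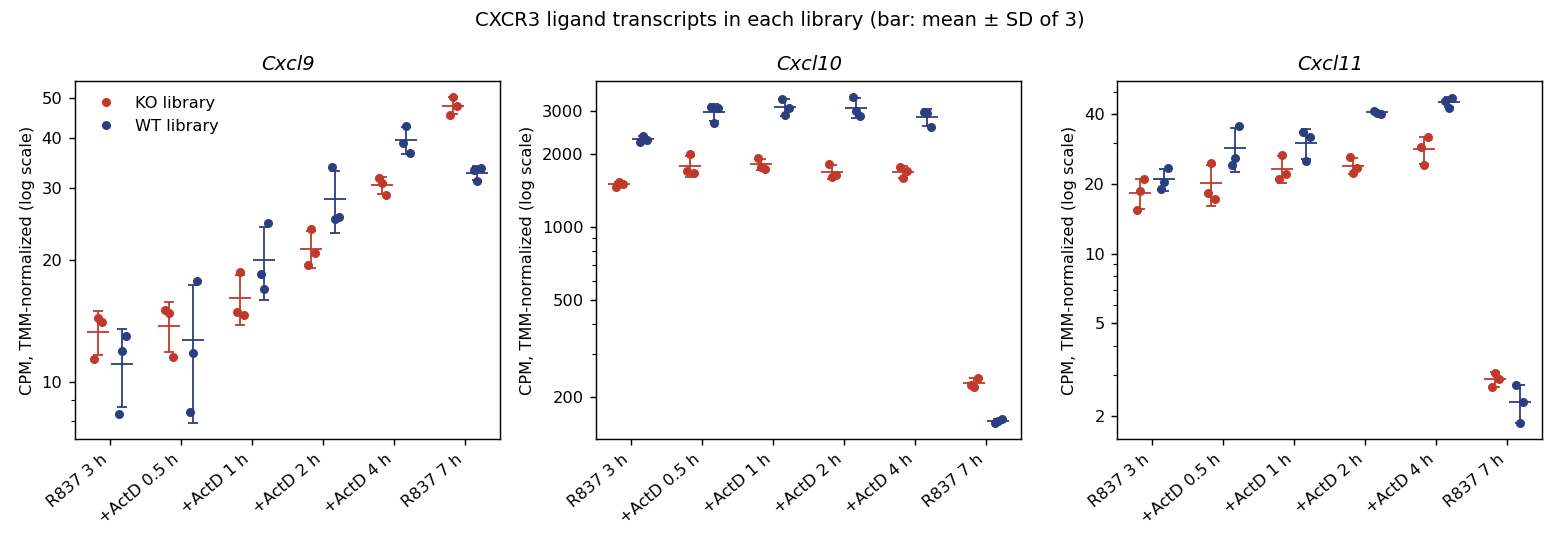
TMM-normalized CPM of Cxcl9, Cxcl10 and Cxcl11 (log axes) in each library of KO and WT macrophages, by treatment; points are libraries, horizontal bars the mean and whiskers the SD of 3. Cxcl10 is lower in KO than in WT from 3 h through 4 h of ActD and higher at 7 h, Cxcl9 is highest in KO at 7 h, and Cxcl11 is lowest at 7 h in both genotypes.

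At 3 h of R837, Cxcl10 was the member that differed between genotypes, and it was lower in KO. Its levels were 1463, 1531 and 1502 CPM in KO and 2246, 2370 and 2281 CPM in WT. All 3 KO libraries lay below all 3 WT libraries, a 1.53-fold difference (log2 -0.62 ± 0.07, edgeR adjusted p = 3.33e-08). Cxcl9 had 11.37, 14.4 and 14.03 CPM in KO and 8.337, 11.9 and 12.93 CPM in WT, and Cxcl11 had 15.45, 18.58 and 20.91 CPM in KO and 19.07, 20.34 and 23.46 CPM in WT. The libraries of the genotypes overlapped for both, and neither difference passed (Cxcl9 log2 0.25 ± 0.17, edgeR adjusted p = 0.287; Cxcl11 log2 -0.20 ± 0.14, edgeR adjusted p = 0.275). Over all genes tested in this comparison 27.8% passed, 12.6% in the lower direction, and 37.4% had KO and WT libraries that did not overlap, 18.1% with KO lower. That count of genes rested on single libraries: it was 3818, and 2211 without KO replicate 1 or 2384 without WT replicate 3. Of all genes, 572 of 13748 had a difference as low as that of Cxcl10 or lower.

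At 7 h of R837 the genotype difference of Cxcl10 had the opposite sign, and Cxcl9 differed as well. Cxcl10 had 222.8, 219.5 and 239.5 CPM in KO and 156, 158.7 and 161.7 CPM in WT. The KO libraries all lay above the WT libraries, 1.43-fold on average (log2 0.52 ± 0.07, edgeR adjusted p = 5.46e-07). Cxcl9 had 45.64, 50.32 and 48.02 CPM in KO and 33.28, 31.25 and 33.64 CPM in WT, also without overlap (1.47-fold, log2 0.55 ± 0.15, edgeR adjusted p = 0.00377). Cxcl11 was near its floor in this series, with 2.662, 3.069 and 2.876 CPM in KO and 2.719, 1.863 and 2.286 CPM in WT. Its libraries overlapped and its difference did not pass (log2 0.33 ± 0.22, edgeR adjusted p = 0.288). These Cxcl11 levels rest on 62 to 84 reads per library, which limits the precision. Over all genes 30.6% passed at 7 h, 15.5% in the higher direction, and 52.2% had libraries that did not overlap, 26.2% with KO higher. Sums of several marker lists were also higher in KO at 7 h. The neutrophil markers summed to 874.4 to 912.5 CPM in KO and 585.7 to 604.1 CPM in WT, the dendritic cell markers to 52.8 to 56.93 CPM in KO and 37.14 to 38.72 CPM in WT, the B and plasma cell markers to 70.39 to 74.09 CPM in KO and 39.67 to 47.36 CPM in WT, and the fibroblast markers to 36.85 to 38.87 CPM in KO and 17.61 to 20.72 CPM in WT. The T and NK cell sums overlapped (19.61 to 21.73 CPM in KO and 17.91 to 21.27 CPM in WT). Of 10 neutrophil markers 2 passed as higher in KO and 0 as lower, and of 7 dendritic cell markers tested 2 and 2. Of 7 B and plasma cell markers 2 passed as higher and 0 as lower, and of 7 fibroblast markers 7 and 0. In the lower direction 15.1% of all genes passed. S100a8 and S100a9 were the most abundant neutrophil markers, at up to 563.5 and 500.2 CPM in any library. The part of these markers in the 7 h differences was not tested.

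Between 3 h and 7 h of R837 the cluster split: Cxcl9 rose in both genotypes while Cxcl10 and Cxcl11 fell. In KO, Cxcl9 averaged 47.99 ± 2.34 CPM at 7 h and 13.27 ± 1.65 CPM at 3 h (3.63-fold, log2 1.86 ± 0.16), and in WT 32.72 ± 1.29 CPM at 7 h and 11.06 ± 2.41 CPM at 3 h (2.95-fold, log2 1.56 ± 0.16). Cxcl10 averaged 227.3 ± 10.8 CPM at 7 h and 1499 ± 34 CPM at 3 h in KO (6.59-fold lower, log2 -2.72 ± 0.08), and 158.8 ± 2.84 CPM at 7 h and 2299 ± 64.3 CPM at 3 h in WT (14.5-fold lower, log2 -3.86 ± 0.08). Cxcl11 averaged 2.87 ± 0.20 CPM at 7 h and 18.31 ± 2.74 CPM at 3 h in KO (6.36-fold lower, log2 -2.67 ± 0.17), and 2.29 ± 0.43 CPM at 7 h and 20.95 ± 2.26 CPM at 3 h in WT (9.18-fold lower, log2 -3.20 ± 0.17). All 6 changes passed and none had overlapping libraries, where 60.4% of genes passed in KO (28.7% higher and 31.7% lower) and 58% in WT (27.3% higher and 30.7% lower), and libraries did not overlap for 65.3% of genes in KO and 65.8% in WT. The fall of Cxcl10 in WT was exceeded or matched by that of 34 of 13748 genes counting Cxcl10 itself, and the fall in KO by that of 240.

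The fall of Cxcl10 was smaller in KO than in WT. The test of that difference gave log2 1.13 ± 0.11 (edgeR adjusted p = 9.29e-11), in a comparison where 12.3% of genes passed. The corresponding differences were log2 0.30 ± 0.23 for Cxcl9 (edgeR adjusted p = 0.449) and log2 0.53 ± 0.26 for Cxcl11 (edgeR adjusted p = 0.197), which did not pass. The labels do not tell whether 3 h and 7 h libraries share mice, and the model treated them as independent.

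**Figure D2:**
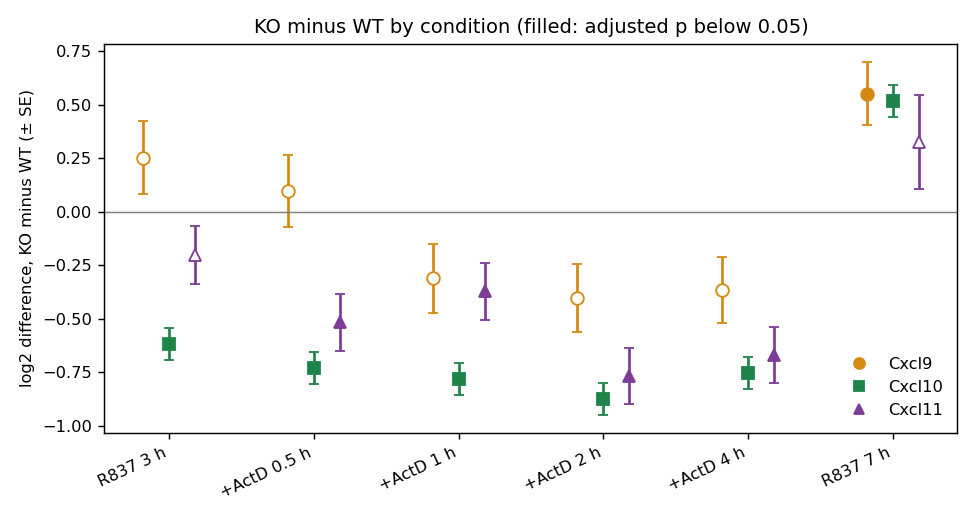
Log2 difference, KO minus WT, of Cxcl9, Cxcl10 and Cxcl11 in each of the 6 conditions, with its SE; filled symbols have an edgeR adjusted p below 0.05. Cxcl10 is at -0.62 to -0.88 through 3 h of R837 and the 4 ActD times and at 0.52 at 7 h.

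While transcription was blocked, the deficit of Cxcl10 in KO persisted. Cxcl10 averaged 1790 ± 182 CPM in KO and 2969 ± 237 CPM in WT after 0.5 h of ActD, and 1815 ± 101 CPM in KO and 3121 ± 247 CPM in WT after 1 h. It averaged 1689 ± 114 CPM in KO and 3100 ± 290 CPM in WT after 2 h, and 1686 ± 92.1 CPM in KO and 2842 ± 228 CPM in WT after 4 h. At each of these times every KO library lay below every WT library. The log2 differences were -0.73 after 0.5 h, -0.78 after 1 h, -0.88 after 2 h and -0.75 after 4 h, each ± 0.07 (edgeR adjusted p = 5.71e-10, 1.43e-10, 5.85e-12 and 2.35e-10). Leaving out either of the WT libraries that stood apart at 0.5 h, or any other library of that time, gave log2 -0.68 to -0.82. Over all genes 26.4%, 17.4%, 30.2% and 35.6% passed at these times (at 0.5 h 3626 genes, 4475 without WT replicate 1 and 2434 without WT replicate 3), and libraries did not overlap for 32.3%, 33.9%, 45.9% and 40.1%. In the lower direction alone 12.7%, 9.92%, 15.4% and 17.9% passed, and 16.1%, 18.5%, 23.6% and 19.6% did not overlap.

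Cxcl11 was lower in KO at all 4 ActD times, most clearly after 2 and 4 h. It had 26.06, 22.32 and 23.34 CPM in KO and 41.44, 40.34 and 40.25 CPM in WT after 2 h. After 4 h it had 28.73, 24.19 and 31.73 CPM in KO and 45.75, 42.53 and 46.85 CPM in WT. The libraries did not overlap at either time (log2 -0.77 ± 0.13, edgeR adjusted p = 2.06e-05 after 2 h; log2 -0.67 ± 0.13, edgeR adjusted p = 8.97e-05 after 4 h). After 0.5 h it averaged 20.1 ± 4.04 CPM in KO and 28.58 ± 6.13 CPM in WT (difference log2 -0.52 ± 0.13; adjusted p by edgeR = 0.00344), and the libraries overlapped; without WT replicate 3 the difference was log2 -0.33 (edgeR adjusted p = 0.0835) and without WT replicate 1 it was log2 -0.62 (edgeR adjusted p = 0.000678). After 1 h it averaged 23.25 ± 3.03 CPM in KO and 30.12 ± 4.53 CPM in WT (difference log2 -0.37 ± 0.13; adjusted p by edgeR = 0.0428). That call was lost without KO replicate 1 (log2 -0.30, edgeR adjusted p = 0.184), KO replicate 3 (-0.34, 0.14), WT replicate 1 (-0.28, 0.205) or WT replicate 3 (-0.33, 0.137).

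Cxcl9 did not differ past the threshold between genotypes at any ActD time. It averaged 13.75 ± 1.94 CPM in KO and 12.65 ± 4.73 CPM in WT after 0.5 h, where the WT libraries spread over 8.431, 11.74 and 17.76 CPM (log2 0.10 ± 0.17, edgeR adjusted p = 0.727). After 1 h it averaged 16.05 ± 2.26 CPM in KO and 20.01 ± 4.13 CPM in WT (difference log2 -0.31 ± 0.16; adjusted p by edgeR = 0.199). The sign of the 0.5 h difference rested on WT replicate 1, without which it was log2 -0.10; without WT replicate 3 it was log2 0.41 (edgeR adjusted p = 0.0756). After 2 h Cxcl9 had 19.43, 23.76 and 20.76 CPM in KO and 33.97, 25.16 and 25.54 CPM in WT, and after 4 h it had 31.86, 30.92 and 28.95 CPM in KO and 38.84, 42.67 and 36.71 CPM in WT. The KO libraries lay below the WT libraries at both times, with differences close to the threshold (log2 -0.40 ± 0.16, edgeR adjusted p = 0.0509 after 2 h; log2 -0.37 ± 0.15, edgeR adjusted p = 0.0591 after 4 h). Without KO replicate 2 or WT replicate 2 the 2 h difference passed (log2 -0.49 and -0.48, edgeR adjusted p = 0.047 and 0.0455).

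None of the 3 transcripts was lost relative to the average transcript during ActD. Cxcl9 averaged 30.58 ± 1.48 CPM after 4 h of ActD and 13.27 ± 1.65 CPM before it in KO (log2 1.21 ± 0.16, edgeR adjusted p = 1.85e-08), and 39.41 ± 3.02 CPM after and 11.06 ± 2.41 CPM before it in WT (log2 1.83 ± 0.17, edgeR adjusted p = 1.06e-12). Cxcl11 rose by log2 0.63 ± 0.13 in KO (edgeR adjusted p = 6.43e-05) and by log2 1.10 ± 0.13 in WT (edgeR adjusted p = 1.55e-09). The rise of Cxcl10 was small, log2 0.17 ± 0.07 in KO (edgeR adjusted p = 0.0396) and log2 0.31 ± 0.07 in WT (edgeR adjusted p = 0.000366). In these comparisons 68% of genes passed in KO and 68.5% in WT. The Cxcl10 call in KO was lost without any one of 5 libraries, replicate 1 or 3 of the 4 h group or any replicate of the 3 h group (log2 0.12 to 0.19, edgeR adjusted p = 0.0512 to 0.195).

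These changes under ActD are relative, because total RNA can fall when transcription is blocked and no spike-in is named in the sources used here. With size factors from ribosomal protein and elongation factor genes in place of TMM, the median gene moved by log2 -0.58 in KO and -0.64 in WT between 3 h and 4 h of ActD. On that scale Cxcl10 was lower after 4 h of ActD, by log2 -0.36 in KO and -0.29 in WT. Cxcl9 still rose on that scale in both genotypes (log2 0.68 in KO and 1.23 in WT), and Cxcl11 still rose in WT (log2 0.49), whereas in KO its change was log2 0.11 (edgeR adjusted p = 0.491). Neither scale gave a genotype difference of these changes that passed: on the TMM scale it was log2 -0.62 ± 0.23 for Cxcl9, -0.14 ± 0.10 for Cxcl10 and -0.47 ± 0.19 for Cxcl11 (edgeR adjusted p = 0.369, 0.798 and 0.433), and only 0.291% of all genes passed.

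A straight line through 0, 0.5, 1, 2 and 4 h of ActD gave the same order of the 3 transcripts. Cxcl9 gained log2 0.32 ± 0.05 per hour in KO and 0.48 ± 0.05 per hour in WT, and Cxcl11 gained log2 0.15 ± 0.04 per hour in KO and 0.27 ± 0.04 per hour in WT, all past the threshold. The slope of Cxcl10 was log2 0.02 ± 0.03 per hour in KO and 0.06 ± 0.03 per hour in WT, which did not pass (edgeR adjusted p = 0.602 and 0.0555). The WT slope of Cxcl10 lay at the threshold, since leaving out single libraries gave log2 0.04 to 0.07 per hour with an edgeR adjusted p of 0.0315 to 0.183. Slopes passed for 68.1% of genes in KO and 70.3% in WT. KO minus WT slopes were log2 -0.16 for Cxcl9, -0.04 for Cxcl10 and -0.12 for Cxcl11 per hour and did not pass (edgeR adjusted p = 0.541, 0.812 and 0.551), in a comparison where 0.0665% of genes did.

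AU-rich elements in the 3' untranslated region (UTR) shorten the life of many cytokine transcripts, so the annotated UTRs of the 3 genes were searched for their core. The UTR of Cxcl9 held ATTTA 3 times in 2452 bases, that of Cxcl10 held it 2 times in 729 bases and that of Cxcl11 held it 1 time in 1218 bases, and the longer TTATTTATT was in none. At least as many ATTTA were found in 69.4%, 33.5% and 81.2% of mouse UTRs of like length, within 20% of each. Counts as high as these were thus common among UTRs of like length.

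The 7 h group and the group with 3 h of R837 and 4 h of ActD span the same total time, with and without continued transcription. Without the block, Cxcl10 was far lower: in KO it averaged 227.3 CPM at 7 h and 1686 CPM with ActD (7.42-fold lower, log2 -2.89 ± 0.08), and in WT 158.8 CPM at 7 h and 2842 CPM with ActD (17.9-fold lower, log2 -4.16 ± 0.08). Cxcl11 averaged 2.869 CPM at 7 h and 28.22 CPM with ActD in KO (9.88-fold lower, log2 -3.30 ± 0.17), and 2.289 CPM at 7 h and 45.05 CPM with ActD in WT (19.7-fold lower, log2 -4.30 ± 0.17). In WT only 2 genes had a lower value in this comparison than Cxcl11, and Cxcl10 ranked 7 from the bottom of 13748. In KO, Cxcl11 ranked 46 and Cxcl10 ranked 86 from the bottom. Cxcl9 behaved differently, with 47.99 CPM at 7 h and 30.58 CPM with ActD in KO (log2 0.65 ± 0.15, edgeR adjusted p = 0.000206), and 32.72 CPM at 7 h and 39.41 CPM with ActD in WT (log2 -0.27 ± 0.15, edgeR adjusted p = 0.106). Over all genes 74.1% passed in KO and 75.3% in WT.

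For all 3 members the level at 7 h, relative to that with the block, was higher in KO than in WT. The KO minus WT difference was log2 0.92 ± 0.21 for Cxcl9 (edgeR adjusted p = 0.00228), 1.27 ± 0.11 for Cxcl10 (edgeR adjusted p = 8.56e-12) and 0.995 ± 0.256 for Cxcl11 (edgeR adjusted p = 0.00586). Of all genes, 14.6% passed, 6.71% in the higher direction. With ribosomal protein gene size factors, which moved the median gene by log2 -0.30, the Cxcl9 difference was log2 0.64 and did not pass (edgeR adjusted p = 0.0585), and Cxcl9 in WT was higher at 7 h than with ActD (log2 0.44). This comparison shares its 7 h libraries with the comparison of 7 h and 3 h.

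**Figure D3:**
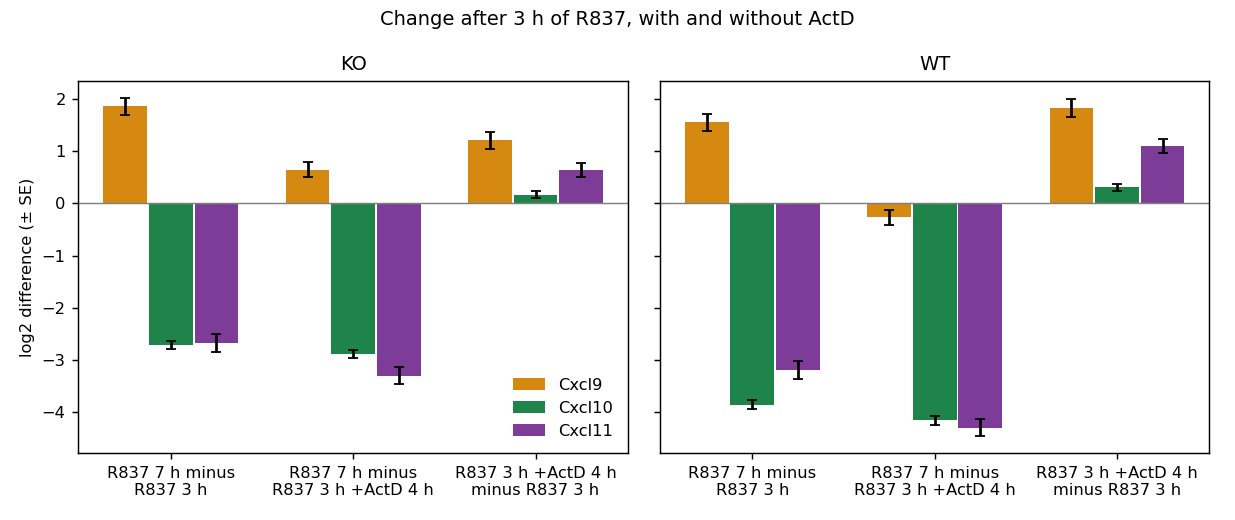
Log2 change of Cxcl9, Cxcl10 and Cxcl11 in KO (left) and WT (right), with its SE, for 7 h against 3 h of R837, 7 h of R837 against 3 h of R837 with 4 h of ActD, and 4 h of ActD against none after 3 h of R837. Cxcl10 and Cxcl11 fall by log2 -2.67 to -4.30 at 7 h in both comparisons, while Cxcl9 rises against 3 h and all 3 rise during ActD on this relative scale.

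Ordered over the 12 groups, Cxcl9 was highest in KO at 7 h, then in WT with 4 h of ActD (39.41 CPM) and WT at 7 h (32.72 CPM). From WT at 7 h to WT with 2 h of ActD, neighbours in the order overlapped, as did all neighbours from KO with 2 h of ActD (21.31 CPM) down to WT at 3 h (11.06 CPM). Cxcl10 was highest in the 4 WT groups with ActD, which overlapped each other, then in WT at 3 h, then in the 4 KO groups with ActD, which also overlapped each other. KO at 3 h, KO at 7 h and WT at 7 h followed, each apart from the next. Cxcl11 was highest in WT with 4 h and 2 h of ActD, each apart from the next, and its 7 h groups were lowest and overlapped each other. The remaining 8 groups of Cxcl11, from 18.31 to 30.12 CPM, each overlapped the next.

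Ratios between members within a library do not depend on the normalization. The ratio of Cxcl9 to Cxcl10 was higher in KO than in WT in all 3 libraries at 3 h: its mean log2 was -6.82 ± 0.16 in KO and -7.72 ± 0.31 in WT (SD, n = 3 each), a difference of 0.90. At 7 h it was -2.24 ± 0.10 in KO and -2.28 ± 0.06 in WT, and the libraries overlapped. The ratio of Cxcl11 to Cxcl10 was -6.36 ± 0.20 in KO and -6.78 ± 0.16 in WT at 3 h, without overlap, and the difference was 0.07 after 4 h of ActD. With 3 libraries against 3 the two-sided exact permutation test cannot give a p under 0.1, and over the 18 ratios and conditions the lowest adjusted exact p was 0.225, so none of these differences passed.

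**Figure D4:**
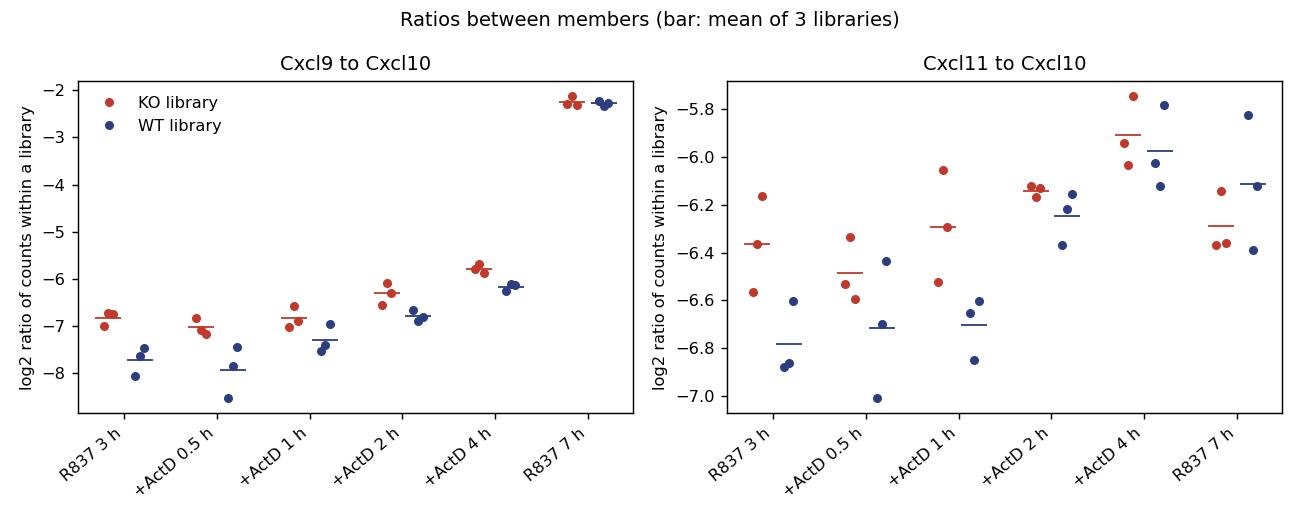
Log2 ratio of counts of Cxcl9 to Cxcl10 (left) and Cxcl11 to Cxcl10 (right) within each library of KO and WT macrophages, by treatment; points are libraries and bars the mean of 3. The Cxcl9 to Cxcl10 ratio is higher in KO than in WT at 3 h (-6.82 against -7.72) and near -2.2 in both genotypes at 7 h.

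Among 8223 genes with a mean of at least 5 CPM, the 5 whose pattern over the 36 libraries was most like each member were named by Pearson correlation of log2(CPM + 1). The libraries fall into 12 groups and share their depth and scaling, so the correlations only describe likeness. For Cxcl9 these were Gbp2 (r = 0.963), Tax1bp1 (0.961), Ptprc (0.955), Tnfrsf9 (0.953) and Nab1 (0.951). With the deposited RPKM in place of CPM, r was 0.807 for Nab1 and 0.943 to 0.955 for the others named for Cxcl9. Gbp2, an interferon-induced GTPase gene, averaged 1043 CPM in KO and 1142 CPM in WT at 7 h, and 278.2 CPM in KO and 292.5 CPM in WT at 3 h, so it rose with time as Cxcl9 did. For Cxcl10 they were Dut (0.973), Il15 (0.973), Trim30c (0.971), Cxcl11 (0.97) and Nt5c3 (0.969), and for Cxcl11 they were Il15 (0.989), Atp8b4 (0.972), Cxcl10 (0.97), Nt5c3 (0.968) and Dut (0.965). Il15, which encodes a cytokine of T and NK cells, averaged 44.96 CPM in KO and 41.45 CPM in WT at 7 h, and 288.7 CPM in KO and 347.1 CPM in WT at 3 h. Between members, r was 0.97 for Cxcl10 and Cxcl11, -0.483 for Cxcl9 and Cxcl10 and -0.321 for Cxcl9 and Cxcl11.

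The receptor gene Cxcr3 was scarce in these macrophages. It averaged 2.60 CPM in KO and 3.15 CPM in WT at 3 h and 0.206 CPM in KO and 0.330 CPM in WT at 7 h. Neither genotype difference passed (log2 -0.28 ± 0.17 at 3 h, edgeR adjusted p = 0.239; log2 -0.67 ± 0.40 at 7 h, edgeR adjusted p = 0.244). Of the 6 genes listed as receptors or enzymes that trim these chemokines, 3 passed the filter. At 3 h 1 was higher and 1 lower in KO, and at 7 h 1 was higher and 0 lower. The shares over all genes were 15.2% higher and 12.6% lower at 3 h, and 15.5% and 15.1% at 7 h. Mmp9, a protease that cleaves CXCR3 ligands, was higher in KO at 3 h (log2 1.195 ± 0.086) and at 7 h (log2 0.96 ± 0.08), and Dpp4, the peptidase that removes their first residues, was lower in KO at 3 h (log2 -0.47 ± 0.18, edgeR adjusted p = 0.0449). The Dpp4 call was lost without any of 5 libraries, KO replicate 1 or 2 or any WT replicate (log2 -0.33 to -0.52).

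Interferon transcripts were at low levels. Ifnb1, the type I interferon made early after Toll-like receptor signals, averaged 1.14 CPM in KO and 0.883 CPM in WT at 3 h, and 0.348 CPM in KO and 0.460 CPM in WT at 7 h, with no difference that passed. Ifng, encoding interferon gamma, averaged 1.585 CPM in KO and 0.639 CPM in WT at 7 h (log2 1.30 ± 0.30, edgeR adjusted p = 0.00072) and 0.282 CPM in KO and 0.207 CPM in WT at 3 h. Of the type I interferon list (receptor, kinases and transcription factors), 5 of 8 tested genes were higher and 0 lower in KO at 3 h, with a median of log2 0.28, where 15.2% of all genes were higher and the median of all genes was log2 0.01. Without WT replicate 1, 3 were higher, and after removal of the trend of differences with gene width 2 were. At 7 h, where 15.5% of all genes were higher and 15.1% lower, 2 were higher and 0 lower (median 0.03). Jak1 (log2 0.42 ± 0.07 at 3 h and 0.25 ± 0.07 at 7 h) and the receptor subunit gene Ifnar2 (log2 0.33 ± 0.06 at 3 h and 0.42 ± 0.06 at 7 h) were higher in KO at both times. The kinase gene Tyk2 was higher at 3 h (log2 0.33 ± 0.09), and Stat2 had log2 -0.13 ± 0.09 at 7 h (edgeR adjusted p = 0.313).

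Of the type II interferon list, 3 of 7 genes were higher and 1 lower in KO at both times. The shares over all genes were 15.2% higher and 12.6% lower at 3 h, and 15.5% and 15.1% at 7 h. The lower count lies near those shares. Jak2, the kinase of the interferon gamma receptor, averaged 430.5 CPM in KO and 167 CPM in WT at 7 h (log2 1.37 ± 0.08) and 334 CPM in KO and 229.4 CPM in WT at 3 h (log2 0.54 ± 0.07). Irf1, a transcription factor that both interferon gamma and NF-kB induce, was higher in KO by log2 0.44 ± 0.07 at 3 h and 0.41 ± 0.07 at 7 h. Irf8, a myeloid partner of Irf1, was lower in KO by log2 -0.48 ± 0.06 at 3 h and -0.35 ± 0.06 at 7 h.

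NF-kB pathway genes were mostly higher in KO at both times, and the count for TLR7 pathway genes at 3 h rested on single libraries. Of 12 TLR7 genes 8 were higher and 0 lower at 3 h, where 15.2% of all genes were higher, among them Irf7, a factor that drives interferon genes (log2 0.61 ± 0.07), Traf3, a signalling adaptor (log2 0.54 ± 0.09), and Unc93b1, whose product carries Toll-like receptors to endosomes (log2 0.36 ± 0.08). At 7 h 3 were higher, among them Traf3 (log2 0.47 ± 0.10) and the kinase gene Irak2 (log2 0.31 ± 0.06), and 2 were lower, among them Irf5 (log2 -1.52 ± 0.08). These 7 h counts lie near the shares over all genes, 15.5% higher and 15.1% lower, and 1 was lower when any single KO replicate, WT replicate 1 or WT replicate 3 was left out. The count of 8 at 3 h was 3 without KO replicate 1 or WT replicate 3, and 4 after removal of the trend of differences with gene width. Of 13 NF-kB genes 11 were higher and 0 lower at both times. After removal of the trend with gene width, 8 were higher and 1 lower at 3 h. Tnf averaged 1729 CPM in KO and 895.7 CPM in WT at 3 h (log2 0.95 ± 0.06) and was higher by log2 1.24 ± 0.06 at 7 h. Nfkb2, an NF-kB subunit gene, was higher by log2 0.62 ± 0.10 at 3 h and 1.31 ± 0.10 at 7 h, and Tnfaip3, which encodes the NF-kB inhibitor A20, was higher by log2 0.61 ± 0.05 at 3 h and 1.37 ± 0.05 at 7 h.

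Some other interferon-induced genes were lower in KO at both times. Of 20 such genes, 6 were lower and 2 higher in KO at 3 h, and 6 were lower and 1 higher at 7 h, with medians of log2 -0.05 and -0.16 against 0.01 and -0.01 over all genes, of which 12.6% were lower at 3 h and 15.1% at 7 h. The 2 higher at 3 h were 1 without KO replicate 3 or WT replicate 1, and the 6 lower at 7 h were 11 when only the libraries compared entered the fit. During ActD, 7 of the 20 were lower in KO after 0.5 h, 13 after 1 h, 12 after 2 h and 13 after 4 h. Higher in KO at these times were 2, 3, 1 and 1, and the medians were log2 -0.07, -0.44, -0.41 and -0.39. Of all genes 12.7%, 9.92%, 15.4% and 17.9% passed as lower. These ActD counts were made with TMM only. Rsad2, encoding the antiviral protein viperin, averaged 793.2 CPM in KO and 1236 CPM in WT at 3 h (log2 -0.64 ± 0.12) and was also lower in KO at 7 h (log2 -0.57 ± 0.13). Cmpk2, its neighbour in the genome and a nucleotide kinase gene, was lower in KO by log2 -0.71 ± 0.11 at 3 h and -0.86 ± 0.11 at 7 h. Ifi44 went the other way at 3 h, with a mean of 78.92 ± 6.24 CPM in KO, against 46.77 ± 3.49 CPM for WT (SD, n = 3 each; log2 0.75 ± 0.13, adjusted p by edgeR = 3.82e-05), and did not pass at 7 h (log2 0.15 ± 0.13, edgeR adjusted p = 0.426). Ifit2, an antiviral RNA-binding protein gene, was lower by log2 -0.40 ± 0.12 at 3 h and -0.96 ± 0.13 at 7 h, whereas Gbp5, a guanylate-binding protein gene, was higher at 7 h (log2 0.73 ± 0.08). With ribosomal protein gene size factors, which moved the median gene at 3 h by log2 0.21, 3 of the 20 were lower and 7 higher at 3 h. Cxcl10 itself was then lower in KO by log2 -0.41 and still passed (edgeR adjusted p = 0.00551).

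Feedback inhibitors of these pathways were higher in KO in 3 of 8 cases and lower in 2 at 3 h (lower in 1 without KO replicate 1 or 2 or WT replicate 2 or 3), and higher in 5 and lower in 1 at 7 h. Over all genes 15.2% were higher and 12.6% lower at 3 h, and 15.5% higher and 15.1% lower at 7 h. The lower count at 7 h lies near that share, and the lower count at 3 h rested on single libraries. Cish, a relative of Socs1, was higher at 3 h (log2 0.70 ± 0.14), as was Pias1 (log2 0.30 ± 0.08), and Socs3, another suppressor of cytokine signalling, was higher at 7 h (log2 0.70 ± 0.09). Socs1, a suppressor of JAK kinases, averaged 23.24 CPM in KO and 6.48 CPM in WT at 7 h (log2 1.84 ± 0.16) and 37.39 CPM in KO and 30.97 CPM in WT at 3 h (log2 0.27 ± 0.14, edgeR adjusted p = 0.155). Atf3, a repressor of Toll-like receptor targets, was lower in KO by log2 -0.78 ± 0.07 at 3 h and -0.79 ± 0.07 at 7 h.

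Among 13 other chemokine genes, 8 were higher and 2 lower in KO at 3 h, and 7 were higher and 2 lower at 7 h. Of all genes 15.2% and 15.5% were higher at these times and 12.6% and 15.1% lower. The lower counts lie near those shares. The neutrophil chemoattractant genes Cxcl3 (log2 1.46 ± 0.09 at 3 h and 3.05 ± 0.10 at 7 h) and Cxcl1 (log2 1.29 ± 0.10 at 3 h and 2.73 ± 0.11 at 7 h) were higher in KO at both times. Cxcl2, of the same group, was higher by log2 2.33 ± 0.09 at 7 h, and Ccl22, a ligand of CCR4, by log2 0.81 ± 0.10 at 3 h and 0.73 ± 0.11 at 7 h. The lower ones at 7 h were the monocyte chemoattractant genes Ccl2 (log2 -0.66 ± 0.09) and Ccl7 (log2 -0.83 ± 0.11), named here after their values were seen. The count of 8 at 3 h was 5 without KO replicate 3 or WT replicate 1.

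**Figure D5:**
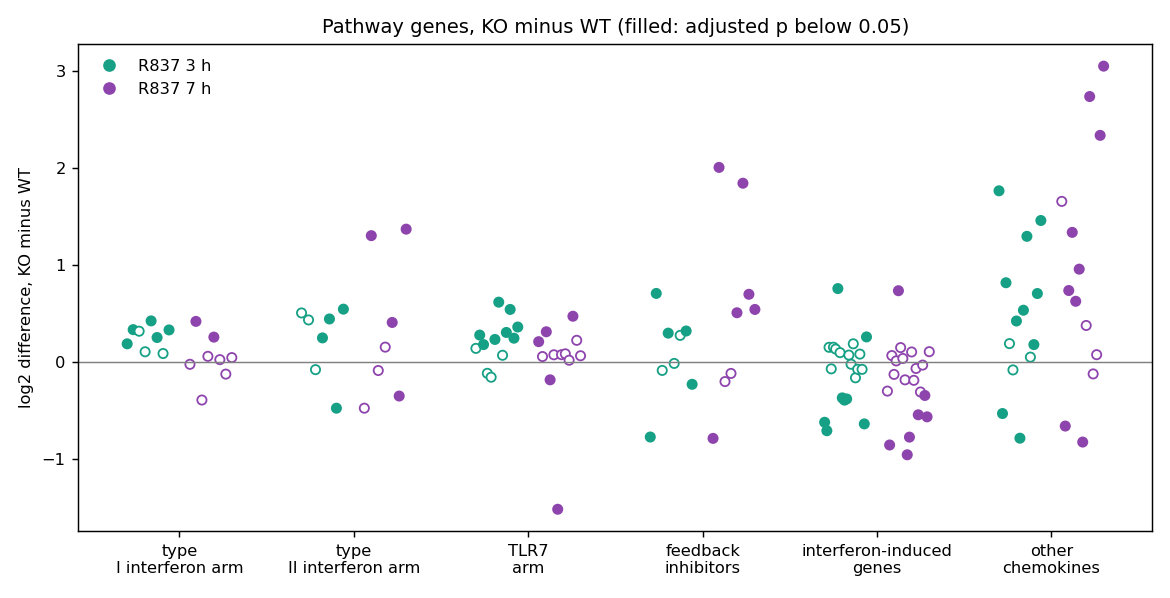
Log2 difference, KO minus WT, at 3 h and 7 h of R837 for every tested gene of 6 lists around the CXCR3 ligands; each point is a gene and filled points have an edgeR adjusted p below 0.05. Most TLR7 genes and other chemokines lie above 0 at 3 h (8 of 12 and 8 of 13 pass as higher), while 6 of 20 interferon-induced genes pass as lower. The shares over all genes at 3 h are 15.2% higher and 12.6% lower. The TLR7 count is 4 after removal of the trend with gene width. With ribosomal protein gene size factors 3 interferon-induced genes pass as lower and 7 as higher.

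Of 7 tested genes next to the 3 chemokine genes, 0 were higher and 2 lower in KO at 3 h, G3bp2 (log2 -0.25 ± 0.08) and Naaa (log2 -0.22 ± 0.08), and 3 were higher and 2 lower at 7 h (lower in 1 without KO replicate 1 or 3 or any single WT replicate, and in 0 with ribosomal protein gene size factors). Over all genes 12.6% were lower at 3 h, and 15.5% were higher and 15.1% lower at 7 h. Sdad1, the gene beside Cxcl9, was higher in KO at 7 h by log2 0.52 ± 0.09, Nup54 by log2 0.39 ± 0.07 and Ppef2 by log2 1.83 ± 0.32. The 3 h calls rested on single libraries: that of G3bp2 was lost without KO replicate 2 or WT replicate 3 (log2 -0.22 and -0.23), and that of Naaa without KO replicate 1 or 3 or WT replicate 1 or 2 (log2 -0.17 to -0.22). With ribosomal protein gene size factors 3 neighbours were higher and 0 lower at 3 h.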

How the data were processed

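RNA of cultured macrophages was made into libraries with the TruSeq RNA v2 kit, which does not mark strand, and sequenced as single reads of 50 bases, per the labels' protocols. Reads were aligned with GSNAP to GRCm38, per the submitters' processing notes; the counting program, annotation release and strand setting are not given in the sources used here. For every gene and library the authors deposited a read count and an RPKM (reads scaled by gene width and library total). The whole-number counts were tested. The deposited RPKM values entered only a check and the alternative for likeness. Their implied library totals are larger than the summed counts, which were 90.86 to 91.76% of them. Gene names came from GENCODE M21 (52403 of 52636 identifiers).

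Counts were normalized by TMM, filtered with filterByExpr and tested with quasi-likelihood F tests in edgeR 4.0.16 (R 4.3.3), adjusted by Benjamini-Hochberg over 13748 genes. A model with a mean for each of the 12 groups used all 36 libraries, and a model of slopes used 30 libraries and 13537 genes, whose residual also holds the misfit of a line. The common biological coefficient of variation was 7.48%. Total counts per library were 20271550 to 46107214, and the number of libraries limits the precision. Replicates carry no numbers in the labels and were numbered by record order. Mice may be shared between conditions, in which case p-values may be too small or, for changes between conditions, too large.

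Besides the members, genes were named by rule: Cxcr3, Art3, N4bp1, Ifnb1, Irf1, Irf7, Tnf, up to 3 genes of each list with the smallest p for KO against WT at 3 h or 7 h, and the 5 genes most like each member by Pearson correlation of log2(CPM + 1), predicted genes left out; 1 gene that the rule names is not reported here; Ifng, Ccl2, Ccl7 and single marker genes, outside that rule, were picked after their values were seen. Gm2673 was named for its overlap with Cxcl11. The members and lists were chosen with earlier results of these data known. Alternatives were RLE and ribosomal protein gene size factors, other filters, DESeq2 1.42.0 on the counts, fits of only the libraries compared, other spans of ActD, removal of a trend with gene width, other pseudocounts in ratios (1 read was added in the main values), the authors' RPKM for likeness, and leaving out each library.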

Additional observations from a re-analysis of the deposited data

Results flagged for a closer look

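The change of Cxcl10 between 3 h and 7 h of R837 differed between genotypes by a test of that difference: the transcript fell less in KO (log2 -2.72) than in WT (log2 -3.86), a difference of log2 1.135 ± 0.105 (edgeR adjusted p = 9.29e-11). It was log2 1.095 to 1.151 when single libraries were left out and 0.932 to 1.142 under the other alternatives.

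The level at 7 h of R837 relative to that after 3 h of R837 and 4 h of ActD also differed between genotypes for all 3 members. The difference was log2 1.271 ± 0.105 for Cxcl10 (-2.89 in KO and -4.16 in WT), log2 0.995 ± 0.256 for Cxcl11 (-3.30 in KO and -4.30 in WT) and log2 0.919 ± 0.214 for Cxcl9 (0.65 in KO and -0.27 in WT). With ribosomal protein gene size factors the Cxcl9 difference was log2 0.637 and did not pass (edgeR adjusted p = 0.0585). In these 2 comparisons of all genes 12.3% and 14.6% passed.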

How the results depend on the processing

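No paired analysis was possible because the labels carry no replicate numbers that tie libraries of different groups. When single libraries were left out, 575 of 594 values of the members kept their direction and their side of the threshold, and under the other alternatives 296 of 321 did. For the ratios only the direction was compared, and 104 of 108 and 36 of 36 kept it. The exact permutation test of the ratios could not pass the threshold with so few libraries. Of the KO against WT differences and the changes over time of R837, those of Cxcl10 kept their direction and side of the threshold under every alternative run. With ribosomal protein gene size factors, the Cxcl11 difference at 3 h was log2 0.001, Cxcl9 at 7 h against 4 h of ActD was log2 0.444 in WT with a KO minus WT difference of 0.637, and 4 h of ActD against none gave -0.36 for Cxcl10 in KO, -0.295 for Cxcl10 in WT and 0.108 for Cxcl11 in KO. Slopes per hour were then -0.12 in KO and -0.136 in WT for Cxcl10 (difference 0.016), and 0.016 in KO and 0.078 in WT for Cxcl11. Without a filter on low counts Cxcl9 passed after 1, 2 and 4 h of ActD (log2 -0.304, -0.38 and -0.335), at 7 h against 4 h of ActD in WT (-0.242) and in the genotype difference of its ActD change (-0.585). Cxcl9 after 2 h of ActD passed with a filter of 1 CPM in 3 libraries (-0.401), and after 2 and 4 h with only the libraries compared (-0.382 and -0.361). Cxcl11 after 1 h of ActD did not pass with RLE size factors (-0.358), DESeq2 (-0.358) or the width trend removed (-0.316). The Cxcl10 slope passed in WT over 0 to 2 h (0.173 per hour) and in both genotypes as 4 h minus 0 h (0.043 in KO, 0.076 in WT). Leaving out single libraries gave ranges of 0.123 to 0.203 for Cxcl10 after 4 h of ActD in KO, 0.041 to 0.071 for its WT slope, -0.487 to -0.251 for Cxcl9 after 2 h, -0.103 to 0.414 for Cxcl9 after 0.5 h, -0.496 to -0.284 for Cxcl11 after 1 h and -0.689 to -0.327 for Cxcl11 after 0.5 h of ActD. For log2 ratios they were -0.073 to 0.179 (Cxcl9 to Cxcl11, 1 h of ActD), -0.011 to 0.167 (Cxcl11 to Cxcl10, 4 h of ActD) and -0.024 to 0.073 (Cxcl9 to Cxcl10, 7 h). The cause was not tested. Over all genes, 3626 passed after 0.5 h of ActD and 2026 with only the libraries compared. The genotype difference of the ActD change passed for 40 genes, 21 with ribosomal size factors, 98 without a filter and 12 to 40 when libraries were left out. That of the slopes passed for 9 genes, 0 over 0 to 2 h, 40 as 4 h minus 0 h and 3 to 10 when libraries were left out. With ribosomal size factors the share of passing genes that were higher in KO was 90.5% at 3 h (54.7% with TMM) and 79.8%, 17%, 79.3% and 90.1% after 0.5, 1, 2 and 4 h of ActD (51.9%, 43.1%, 48.8% and 49.8% with TMM). For genotype differences it was 14.4% for 7 h against 3 h (44.3% with TMM) and 7.07% for 7 h against 4 h of ActD (45.8% with TMM). Of genes changed by 4 h of ActD, 7.79% in KO and 7.36% in WT were higher (46% and 46.6% with TMM), and of those that differed between 7 h and 4 h of ActD, 74.4% in KO and 85.5% in WT were higher at 7 h (51.3% and 50.4% with TMM). Cxcl11 at 7 h, with 62 to 84 reads, is where depth limits most.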

Other observations

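Genes that control the decay or stability of messenger RNA were in part higher in KO. Of 12 on the list, 8 were higher and 1 lower at 3 h, and 7 were higher and 3 lower at 7 h, where 15.2% and 15.5% of all genes were higher and 12.6% and 15.1% lower; the lower one at 3 h was N4bp1 itself. Without WT replicate 3 the count of 8 at 3 h was 4, and after removal of the width trend it was 5; with ribosomal protein gene size factors 0 were lower at 7 h. Zfp36l1, which encodes a protein that binds AU-rich elements, averaged 14.62 CPM in KO and 5.334 CPM in WT at 7 h (log2 1.45 ± 0.14). Zc3h12a, encoding the endonuclease Regnase-1, was higher in KO by log2 0.67 ± 0.08 at 7 h, as was Arid5a, a stabilizing RNA-binding protein gene, by log2 0.76 ± 0.08. Hnrnpd and Khsrp, which encode further binders of AU-rich elements, were higher in KO at 3 h by log2 0.49 ± 0.09 and 0.53 ± 0.10.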
